A study of Homo sapiens with 6 samples.

Results

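Genes of lysosomal protein breakdown, 10 in number, were followed across the 6 RNA sequencing libraries of U937 cells: the cysteine proteases CTSB, CTSC, CTSH, CTSK, CTSL, CTSS and CTSZ, the aspartic protease CTSD, the asparaginyl endopeptidase LGMN, and CST3, which encodes the inhibitor cystatin C. They were chosen by symbol, each symbol matched 1 Ensembl identifier, and they are 10 of the 60612 identifiers in the deposited table. U937 is an established human myeloid line derived from a histiocytic lymphoma. The labels give it as acute myeloid leukemia, genotype WT. All cells were kept in RPMI-1640 without serum for 36 h. The B2 group (3 libraries) received 1 µM of an agent known only as B2, and the DMSO group (3 libraries) received the vehicle. Both groups carry replicate numbers 1, 2 and 3, and no source says what a number marks or whether cultures were separate. The p-values below therefore measure only how far these libraries spread, and that spread may be technical.

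Cathepsins are proteases that are made as inactive precursors, sorted to the lysosome and activated there at acid pH. Macrophages use them to digest what they engulf and to cut antigens and the invariant chain before peptides are loaded on MHC class II. Cystatin C is secreted and blocks the papain-like cysteine cathepsins, and it can block legumain through a separate site, but it does not act on the aspartic protease cathepsin D.

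Library totals lay between 61150740 and 78431054 counts. Of the 10 myeloid marker genes listed for the cell line, 10 were measured above the filter on low counts, although MPO was near its lower end, at 0.281 to 1.67 CPM (CPM, counts scaled to the library total after correction by trimmed mean of M values, TMM). The macrophage genes MRC1 and MSR1 were at 0 counts in 6 and 5 libraries. The libraries numbered 3 stood apart: the 10 macrophage markers summed to 1005 (B2) and 1064 CPM (DMSO) there and to between 16.8 and 36.5 CPM in numbers 1 and 2. S100A9, the gene in the series title, was higher in number 3 as well (4.71 on the log2 scale, SE 0.27) and its B2 over DMSO estimate was 0.12 (SE 1.54).

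Most of the 10 genes were abundant, and 3 were scarce. CTSD ranked 7 of 17224 tested genes by mean CPM, CTSB 54, CTSZ 124 and CST3 357, while CTSL ranked 10944, CTSK 12145 and LGMN 13512. All 10 passed the filter on low counts. Compared per length, as CPM per kilobase of annotated exon, the mean over the 6 libraries was 2607 for CTSD, 420.4 for CTSZ, 208 for CTSB, 106 for CST3, 51.4 for CTSH, 29.6 for CTSS, 22.7 for CTSC, 1.33 for CTSL, 0.805 for CTSK and 0.182 for LGMN. The ranges of neighbours in this order were separate at 3 steps, from CTSD to CTSZ (6.20 times), from CTSC to CTSL (17.1 times) and from CTSK to LGMN (4.43 times). Ranges overlapped at the other steps. Within single libraries CTSZ still exceeded CTSB, CTSB exceeded CST3 and CST3 exceeded CTSH in 6 of 6, while CTSH exceeded CTSS in 4 of 6, CTSS exceeded CTSC in 5 of 6 and CTSL exceeded CTSK in 5 of 6.

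**Figure D1:**
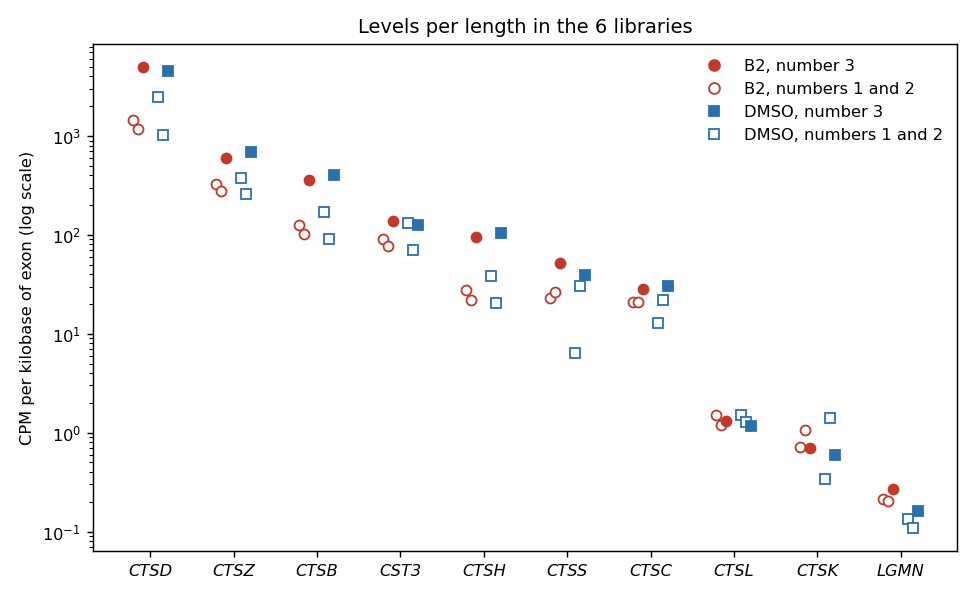
CPM per kilobase of exon (log axis) of the 10 genes in each library, ordered by mean level, with B2 as circles, DMSO as squares and the libraries numbered 3 filled. CTSD lies above all others in every library, and a gap of 17.1 times in mean level separates CTSC from CTSL.

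B2 did not change any of the 10 genes detectably. With edgeR's quasi-likelihood test, 0 of 17224 genes were called at an adjusted p below 0.05 (0%), 85 had an unadjusted p below 0.05 (0.493%), limma-voom called 0 and DESeq2, run without the filter, called 3, none of them among the 10. Of the 10, 5 had a positive and 5 a negative log2 fold change, with a median of -0.03 against -0.08 over all genes tested, and 0 had an unadjusted p below 0.05. The 95% interval of CTSH ran from -1.80 to 1.43, and the narrowest, that of CTSL, from -0.71 to 0.74. With the replicate number as a block the median SE of the 10 genes was 0.26 in place of 0.50, CTSH ran from -0.69 to 0.36, CTSB from -0.66 to 0.39, and the narrowest interval was that of CTSZ, from -0.59 to 0.42. The blocked fit also called 0 of the 10.

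**Figure D2:**
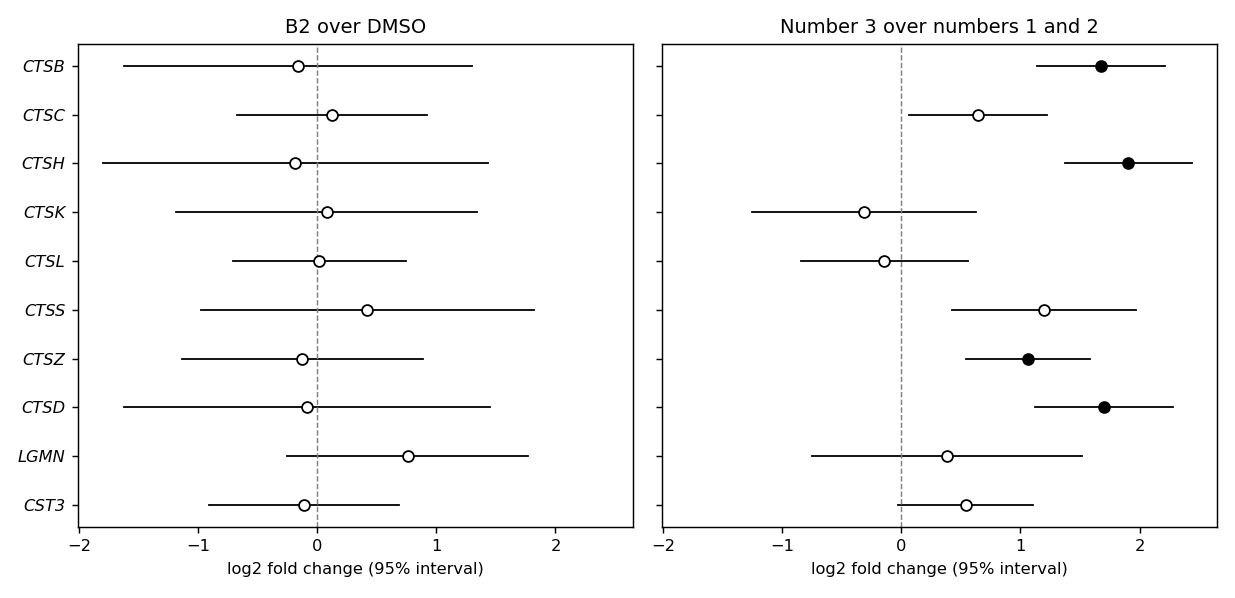
Log2 fold change with its 95% interval (edgeR) for each gene, B2 over DMSO on the left and number 3 over numbers 1 and 2 on the right, with filled circles for an adjusted p below 0.05. All 10 intervals on the left include 0, and 4 genes are filled on the right.

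In the libraries numbered 3, relative to numbers 1 and 2 and with treatment as a term, 4 of the 10 genes rose: CTSH, CTSD, CTSB and CTSZ. Their rise was between 1.06 and 1.91 on the log2 scale. CTSS, CTSC and CST3 had positive estimates that did not pass, LGMN was at 0.39, and CTSK (-0.31) and CTSL (-0.14) were negative. The test called 575 of 17224 genes (3.34%), of which 501 were higher (2.91%) and 74 lower (0.43%). The median of the 10 genes was 0.85, against -0.05 over all genes tested. That number 3 stands apart was known from an earlier account of these data before the contrast was made, so it is no independent support. Leaving out B2 replicate 1 gave 958 calls in place of 575, leaving out B2 replicate 3 gave 304, and leaving out DMSO replicate 3 gave 288.

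**Figure D3:**
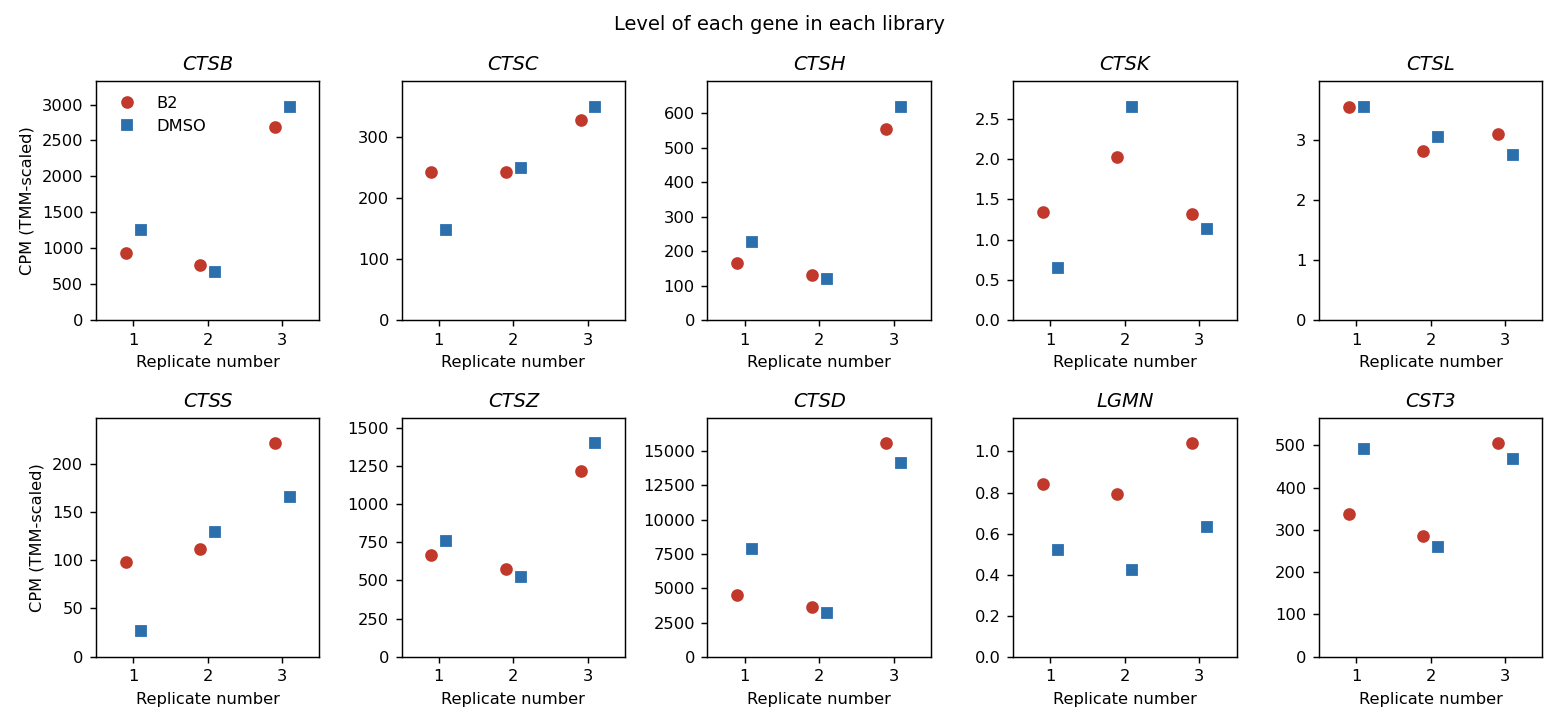
TMM-scaled CPM of each gene in each library, by replicate number, with B2 as circles and DMSO as squares and each vertical axis starting at 0. CTSB, CTSH, CTSZ and CTSD are highest at number 3 in both treatments, CTSL is nearly level, CTSS is lowest in DMSO replicate 1, and LGMN is higher with B2 at each number.

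Among the cysteine proteases, CTSB (chromosome 8, 11842524 to 11869448 on GRCh38) encodes an endopeptidase that also trims dipeptides from the carboxyl end. Replicates 1, 2 and 3 measured 927, 762 and 2688 CPM under B2 and 1260.4, 671 and 2970.2 CPM under DMSO. Both libraries numbered 3 were above the other 4, and B2 and DMSO overlapped. The number 3 level was 3.18 times the mean of numbers 1 and 2 with B2 and 3.08 times with DMSO. CTSB rose by 1.68 on the log2 scale (SE 0.24, adjusted p = 0.00173). The call was lost when B2 replicate 3 (adjusted p = 0.0668) or DMSO replicate 3 (0.0880) was left out, so that 1 library stood for number 3 and was assumed to vary like the others.

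CTSH (chromosome 15, 78921058 to 78949574) encodes an enzyme that acts mainly as an aminopeptidase. It showed the largest rise of the 10. Its level was 165, 131 and 555 CPM under B2 and 227, 119.9 and 619 CPM under DMSO. Number 3 was thus 3.75 times the mean of the other numbers with B2 and 3.58 times with DMSO. The log2 fold change was 1.91 (SE 0.24, adjusted p = 0.000680), and it stayed between 1.79 and 2.08 without any 1 of the 6 libraries. CTSH passed the test in each of these fits. It passed only narrowly without B2 replicate 3 or DMSO replicate 3, where 1 library stood for number 3.

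CTSZ (chromosome 20, 58995185 to 59007247) encodes a carboxypeptidase. Its values were 668, 572 and 1219 CPM under B2 and 761, 523 and 1398 CPM under DMSO, again with both libraries numbered 3 on top. Its rise was 1.06 (SE 0.24, adjusted p = 0.0320). The estimate stayed close to this where the call was lost. It was 1.09 without the filter on low counts (adjusted p = 0.0832), 1.18 without B2 replicate 2 (0.0807) and 1.15 without B2 replicate 3 (0.672). Leaving out DMSO replicate 2 gave 0.99 (0.152) and leaving out DMSO replicate 3 gave 0.98 (0.979).

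CTSD (chromosome 11, 1752752 to 1764573) encodes the aspartic protease cathepsin D, the main lysosomal protease of its class. It read 4506, 3660.0 and 15571 CPM under B2 and 7835, 3221 and 14110.4 CPM under DMSO. It alone took 1.54% (B2) and 1.40% (DMSO) of all counts at number 3, and from 0.346% to 0.675% at numbers 1 and 2. The rise of CTSD was 1.70 (SE 0.26, adjusted p = 0.00274), and it did not pass without B2 replicate 3 (1.47, adjusted p = 0.0846). DMSO replicate 1 lay between the other libraries numbered 1 and 2 and those numbered 3. The annotated gene AC068580.4 shares 1304 exon bases with CTSD on the same strand (41.7% of the exon bases of CTSD) and AC068580.3 another 493 on the opposite strand. These neighbours had 1110 to 15880 and 1572 to 4067 counts, against 250209 to 1095692 for CTSD. How reads in the shared bases were assigned is not given in the sources used here.

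Upstream sequence was at hand in RefSeq promoter windows (GRCh38.p14) for 6 of the 10 genes, CTSC, CTSD, CTSH, CTSL, CTSZ and CST3. Those of CTSD, CTSH and CTSZ are shown because these genes rose together in number 3, each from its minus strand, 5′ to 3′, with the bases that lie in exons annotated by GENCODE 29 left out, apart from a 30-base stretch of CTSD. Capitals mark matches to the motifs searched. The first and the third line hold none. The second is that stretch, with the E-box CACGTG in capitals, and the fourth has CTTCCTC, the reverse complement of the purine-rich ETS motif GAGGAAG. Positions count back from the RefSeq start of transcription.
CTSD, chr11:1763993-1764177, bases -250 to -66: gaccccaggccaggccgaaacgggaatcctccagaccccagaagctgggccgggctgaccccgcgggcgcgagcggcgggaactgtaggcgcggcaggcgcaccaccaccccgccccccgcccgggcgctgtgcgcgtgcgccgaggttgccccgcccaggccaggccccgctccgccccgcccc
CTSD, chr11:1763957-1763986, bases -59 to -30: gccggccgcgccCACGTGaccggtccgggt
CTSZ, chr20:59007255-59007504, bases -250 to -1: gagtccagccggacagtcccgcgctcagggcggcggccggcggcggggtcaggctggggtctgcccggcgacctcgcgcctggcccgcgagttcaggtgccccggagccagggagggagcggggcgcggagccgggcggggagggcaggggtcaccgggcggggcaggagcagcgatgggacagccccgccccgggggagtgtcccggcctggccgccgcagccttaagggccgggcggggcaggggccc
CTSH, chr15:78945095-78945296, bases -250 to -49: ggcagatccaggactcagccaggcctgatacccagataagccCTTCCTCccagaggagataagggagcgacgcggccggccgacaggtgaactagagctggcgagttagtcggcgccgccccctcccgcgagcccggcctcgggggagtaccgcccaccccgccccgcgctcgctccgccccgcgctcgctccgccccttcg

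On both strands of the whole windows, from 250 bases before to 50 after the start, 6 motifs were searched. The E-box CACGTG, the core of the element bound by TFEB, was found in 1 of the 6 windows (CTSD, bases -47 to -42) and in 7.26% of 35116 promoters. The full CLEAR element, the E-box with GT before it and AC after it, was in 0 of the 6 and in 0.353% of promoters. The ETS motif GAGGAAG was in 2 of the 6, CTSH (bases -208 to -202) and CTSL (-200 to -194), and in 13.6% of promoters. The interferon response element, GAAA repeated after 2 bases of any kind (3.57% of promoters), the gamma-activated site TTCNNNGAA (7.66%) and the AP-1 motif TGANTCA (7.71%) matched 0 of the 6. A match is a match of letters only. CTSH, called in number 3, and CTSL, not called, both hold the ETS letters, and what a motif does to these genes was not tested.

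CTSS (chromosome 1, 150730196 to 150765957) encodes a protease that stays active near neutral pH and removes the invariant chain from MHC class II. Its 6 values were 97.7, 112 and 221 CPM under B2 and 26.9, 129 and 166 CPM under DMSO. DMSO replicate 1 was far below the rest, so the gene spanned 8.22 times from its lowest to its highest library, the widest span of the 10. Both libraries numbered 3 were again on top. The number 3 estimate of 1.20 (SE 0.35, adjusted p = 0.106) did not pass, but it did with 6 other settings: RLE factors (adjusted p = 0.0401), the stricter filter (0.00308), DESeq2 (0.0151), limma-voom (0.0193), counts divided by 4 (0.000914) and the GC trend removed (0.0304). It also passed without B2 replicate 1 (0.00209) and without DMSO replicate 2 (0.0192). For B2 over DMSO the estimate was 0.42 (SE 0.61), 0.68 with the replicate block (SE 0.36, 95% interval -0.11 to 1.46, edgeR adjusted p = 1.0) and -0.02 without DMSO replicate 1.

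CTSC (chromosome 11, 88293592 to 88337787) encodes dipeptidyl peptidase I, which activates the serine proteases of myeloid granules. It read 242, 241 and 327 CPM under B2 and 147, 249 and 349 CPM under DMSO. Like CTSS it was lowest in DMSO replicate 1 and highest in number 3. Its number 3 estimate was 0.64 (SE 0.26, adjusted p = 0.275), and it passed without B2 replicate 1 (0.84, adjusted p = 0.0287). For both CTSC and CTSS, number 3 did not overlap the other libraries, as held for 6 of the 10 genes and for 12.3% of all genes tested (CTSB, CTSC, CTSD, CTSH, CTSS and CTSZ).

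Among the papain-like proteases of the 10 genes, CTSL and CTSK were the least abundant, and neither was called in number 3. CTSL (chromosome 9, 87725519 to 87731393), a broad endopeptidase, read 3.56, 2.82 and 3.10 CPM under B2 and 3.56, 3.05 and 2.76 CPM under DMSO. It was the most even of the 10, with 1.29 times between its lowest and highest library, and its number 3 interval ran from -0.84 to 0.56. CTSK (chromosome 1, 150796208 to 150808323), the collagen-degrading protease of osteoclasts, read 1.34, 2.03 and 1.32 CPM under B2 and 0.645, 2.65 and 1.13 CPM under DMSO. It was highest in number 2 in both treatments. The number 3 estimate of CTSK was -0.31 (SE 0.43, adjusted p = 0.809), and 0.014 without B2 replicate 1. Of 7 other osteoclast markers 5 were tested and 4 rose in number 3, and TNFRSF11A did not pass (0.60, SE 0.44, adjusted p = 0.595). The 7 summed to 346 and 366 CPM there against 15.6 to 18.7 CPM elsewhere, most of it MMP9 (271 and 285 CPM), and CALCR was at 0 counts in all 6.

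LGMN (chromosome 14, 92703807 to 92748702) encodes legumain, which cuts after asparagine and matures several cathepsins. It was the 1 gene of the 10 whose treatment groups did not overlap. Its level was 0.840, 0.794 and 1.04 CPM under B2 and 0.519, 0.425 and 0.631 CPM under DMSO. These values rest on 58 to 63 counts with B2 and 29 to 49 with DMSO. The mean was 0.891 ± 0.131 CPM under B2 and 0.525 ± 0.103 CPM under DMSO (SD, n = 3 each). Groups were separate in 1.93% of all genes tested with B2 higher and in 1.63% with B2 lower. LGMN was higher with B2 in 3 of 3 same-numbered pairs, as were 6.71% of genes, and 0 of the 10 genes were lower in 3 of 3 (9.14% of genes). The test did not call it: the log2 fold change was 0.76 (SE 0.44, 95% interval -0.25 to 1.77, unadjusted p = 0.122, adjusted p = 1.0). Without any 1 library the estimate stayed between 0.60 and 0.92, and LGMN was the only gene of the 10 whose sign for B2 over DMSO was the same under each of 18 alternatives. The 3 of 3 pairs follow from groups that did not overlap, and so, largely, does the constant sign. Neither is separate support for a difference.

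Cystatin C was far more abundant than legumain and followed number 3 only weakly. CST3 (chromosome 20, 23626706 to 23638473) read 336, 286 and 505 CPM under B2 and 491, 259 and 468 CPM under DMSO. DMSO replicate 1 was as high as the libraries numbered 3. The number 3 estimate was 0.54 (SE 0.26, adjusted p = 0.368). With DMSO replicate 1 left out it was 0.77 and passed (adjusted p = 0.0486). Of 8 other cystatins, CST7, CSTA and CSTB were tested and 0 were called. CST7 encodes cystatin F, an inhibitor made in leukocytes that acts on cathepsin C, and CSTA and CSTB encode the intracellular stefins. CST7 read 450.3, 379 and 518 CPM under B2 and 649, 347 and 514 CPM under DMSO, CSTB had a number 3 estimate of 0.70 (SE 0.25, adjusted p = 0.188), and CST1, CST2, CST4 and CST5 had 0 counts in every library.

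The size of the number 3 difference did not differ detectably between the treatments. The interaction of B2 with number 3 called 0 of 17224 genes (0%), 246 of which had an unadjusted p below 0.05, and limma-voom called 0. That test has 2 residual degrees of freedom. Leaving out 1 library of number 1 or 2 left 1 degree of freedom and gave 12 to 19 calls, except 1193 without DMSO replicate 2. CTSS was called in that last fit (-1.45, adjusted p = 0.00832), and no other gene of the 10 was called in these fits. As ratios of number 3 to the mean of numbers 1 and 2, CTSD stood at 3.81 with B2 and 2.55 with DMSO, CTSS at 2.11 and 2.12, CTSC at 1.35 and 1.76, CST3 at 1.62 and 1.25, and LGMN at 1.27 and 1.34.

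The contrast of number 2 with number 1 called 9 genes (0.0523%), 5 higher (0.029%) and 4 lower (0.0232%) in number 2, and 0 of the 10. With counts divided by 4 it called CTSS (1.09, adjusted p = 0.0375). Without B2 replicate 1, number 1 was the single library DMSO replicate 1, assumed to vary like the others. That fit called 3965 genes (22.0% of those tested), and of the 10 it called CTSB (-0.98), CTSD (-1.43), CTSH (-1.0) and CST3 (-1.07) lower and CTSS (1.96) higher in number 2. On the log2 scale DMSO replicate 1 exceeded DMSO replicate 2 by 1.28 in CTSD, by 0.92 in CST3 and CTSH and by 0.91 in CTSB. It lay below DMSO replicate 2 in CTSS (log2 ratio -2.26), CTSK (-2.04) and CTSC (-0.76). With B2 the same log2 ratio lay between -0.59 (CTSK) and 0.34 (CTSL). The pair of DMSO libraries also had the strongest trends with GC content across genes (Spearman 0.48 for DMSO replicate 1 and -0.56 for DMSO replicate 2, against -0.28 to 0.20 elsewhere). CTSC and CTSS had the lowest transcript GC content of the 10, 38.2% and 39.5%, and CTSD the highest, 64.0%. CST3 and CTSK, whose DMSO ratios had opposite signs, were close in GC content, at 45.9% and 46.3%. With the GC trend removed, the estimate of number 2 over number 1 went from 0.36 to -0.29 for CTSC. It went from 1.18 to 0.47 for CTSS, from 1.29 to 0.77 for CTSK and from -0.82 to -0.38 for CTSD. For CST3 it went from -0.59 to -1.18, while CTSB (-0.60 to -0.55) and CTSH (-0.63 to -0.54) moved little. That fit called 0 of the 10. B2 over DMSO was then 0.61 for CTSS (SE 0.53) and 0.27 for CTSC (SE 0.29). With the replicate block added it was 0.76 for CTSS (SE 0.26) and 0.31 for CTSC (SE 0.18). Neither was called there (edgeR adjusted p = 0.9998 for each).

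**Figure D4:**
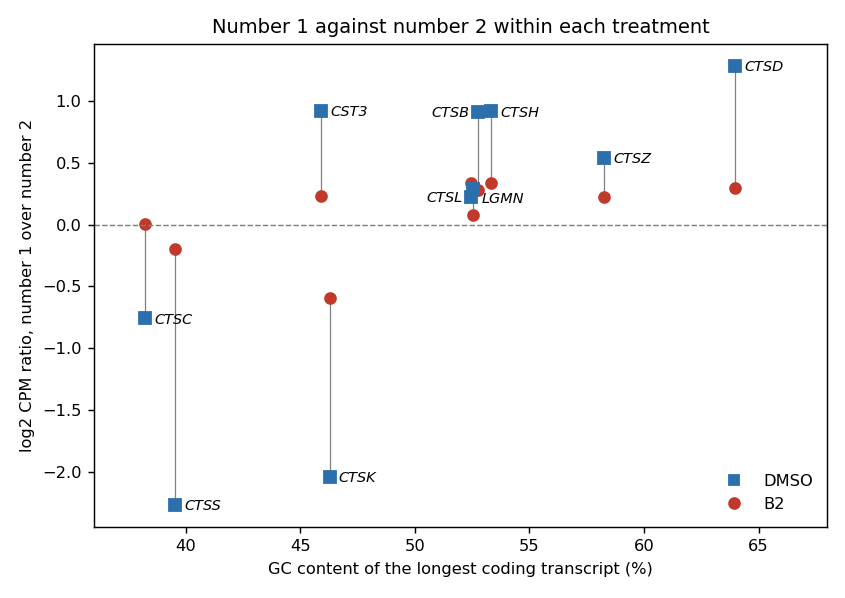
Log2 CPM ratio of replicate number 1 to number 2 within DMSO (squares) and within B2 (circles) against the GC content of each gene's longest coding transcript, with a line joining the 2 ratios of a gene. The DMSO ratios run from -2.26 (CTSS) to 1.28 (CTSD), and the B2 ratios lie closer to 0.

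Other genes of the lysosome mostly had positive estimates in number 3, and some of them passed. Over all 17224 genes tested, 2.91% were called higher in number 3, and the median estimate was -0.05. Acid hydrolases are the enzymes that break down sugars, lipids and proteins in the lysosome. Their list of 34 genes also held PSAP and GM2A, which do not encode enzymes. Of the 34 genes, 34 had positive estimates (median 0.70) and 5 rose. FUCA1, a fucosidase, rose by 2.76 (SE 0.26, adjusted p = 5.34e-05), from 70.05 to 134 CPM in numbers 1 and 2 to 677 and 701 CPM in number 3. SGSH, a sulfatase of heparan sulfate breakdown, read 0.176 to 0.383 CPM in numbers 1 and 2 and 3.93 and 4.98 CPM in number 3, and the acid phosphatase ACP2 rose by 2.17 (SE 0.27). The other 2 were ARSA (1.55) and PSAP (1.88), named after their values were seen. PSAP, the precursor of the saposins, stood at 3428 CPM (B2) and 3829.5 CPM (DMSO) in number 3 and at 723 to 1419 CPM otherwise.

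Of 15 tested lysosomal membrane genes 14 were positive (median 0.62) and 1 rose, the macrophage glycoprotein CD68 (2.97, SE 0.25). Of 16 proton pump (V-ATPase) subunits and accessory genes 16 were positive (median 0.73) and 1 rose, ATP6V0D2, an isoform known from osteoclasts and macrophages, from 0.383 to 0.837 CPM up to 16.1 and 17.8 CPM. Of 7 other cathepsins 4 were tested. CTSA, a carboxypeptidase, rose by 1.02 (SE 0.25, adjusted p = 0.0469). The granule protease CTSG read 1492, 1289 and 2020 CPM under B2 and 2364, 1240 and 2122 CPM under DMSO and did not pass (0.42, adjusted p = 0.516).

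None of 9 genes that sort enzymes to the lysosome was called (median 0.20), nor were the 4 transcription factors of the MiT/TFE family that bind lysosomal promoters, TFEB, TFE3, MITF and TFEC (0 of 4, median 0.79). The estimate of TFEB was 0.55 (SE 0.28, adjusted p = 0.410). Of 6 genes of class II antigen processing 3 rose, IFI30 (a lysosomal thiol reductase, 105 to 234 CPM in numbers 1 and 2 and 1234 and 1115 CPM in number 3), HLA-DMA and HLA-DRA. HLA-DRA was at 0 counts in 2 libraries and at most 1.88 CPM. With B2 over DMSO, 0 genes of these lists were called.

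**Figure D5:**
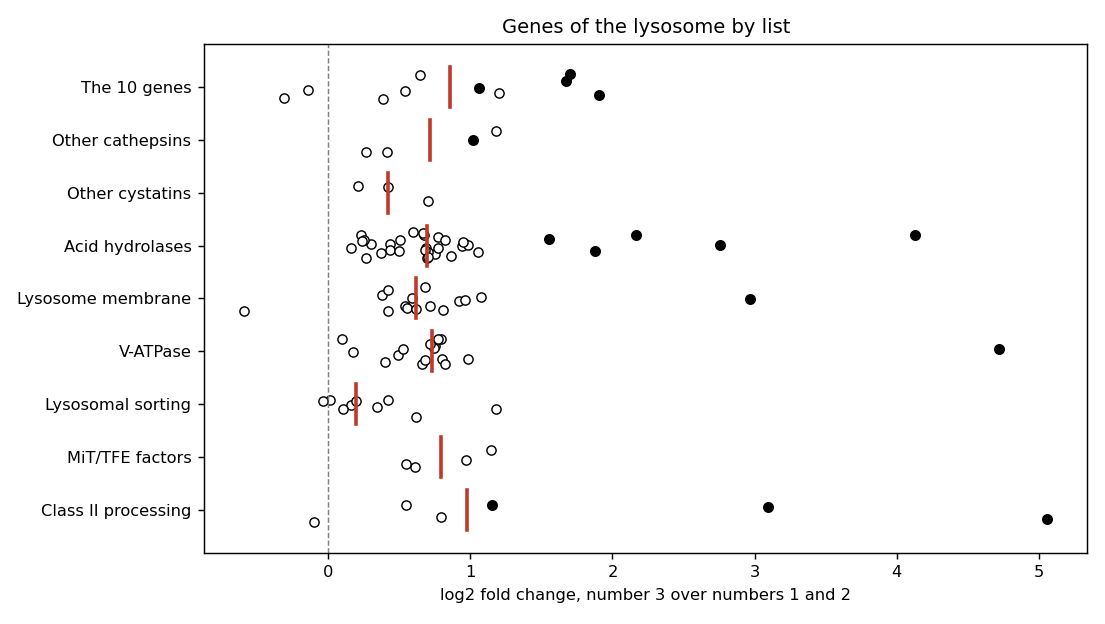
Log2 fold change of number 3 over numbers 1 and 2 for each tested gene of the 10 and of 8 lists of lysosomal and antigen processing genes, with the median of each list as a vertical bar and genes called at an adjusted p below 0.05 filled. All 9 medians are above 0, and the filled genes reach from 1.02 (CTSA) to beyond 4.

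Markers of other cells moved with number 3 in part. In bulk libraries a change in the share of a cell type and a change in RNA per cell cannot be told apart. The macrophage markers that passed the filter were 7 of 10, and 7 of 7 rose with number 3, including SIGLEC1 and CD14. Their part in the cathepsin differences was not tested. The T cell receptor chains CD3D, CD3E and CD3G and the B cell marker MS4A1 had 0 counts in all 6 libraries. Fibroblast markers summed to 4.53 to 8.19 CPM, with 4 of 7 below the filter, and dendritic cell markers to at most 0.567 CPM. The epithelial markers summed to 26.2, 26.4 and 29.95 CPM under B2 and 1.22, 7.83 and 23.2 CPM under DMSO. Their estimates for B2 were positive in 5 of 5, with 0 called, and their part in the LGMN difference was not tested. The granule genes AZU1, CTSG, ELANE, MPO and PRTN3 summed to 2438 to 4671 CPM, highest in DMSO replicate 1, and 0 of 5 were called in number 3.

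The genes were also compared by the shape of their 6 values, as the root-mean-square difference of mean-centred log2 CPM over the 6 libraries. CTSB and CTSH were the closest pair among the 9 with a mean of at least 1 CPM (0.11), followed by CTSB and CTSD (0.15) and CTSD and CTSH (0.18), and CTSD and CTSK were the farthest apart (1.38). Among 12338 other genes, HLA-C was nearest to CTSB (0.034), SERPINA1 (0.033), PSAP (0.040) and GSN (0.051) to CTSH, LY6E to CTSD (0.065) and THEMIS2 (0.037), FGR (0.047) and ITGAM (0.050) to CTSZ. The nearest gene to CST3 was TFEB (0.029), which read 42.1, 36.7 and 65.3 CPM under B2 and 65.7, 33.7 and 61.2 CPM under DMSO, high in DMSO replicate 1 as CST3 was. PECAM1 was nearest to CTSS (0.083) and shared its low value in DMSO replicate 1, at 39.2 CPM against 136 to 285 CPM elsewhere. CTSK had POLD3 (0.057), CTSL had SLC29A2 (0.054), CTSC had DNAJC1 (0.045), and LGMN, the scarcest, had no close match, with PAX8 nearest at 0.163. All these values share the same 6 libraries and their depth.

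Summed over the 10 genes, the level was 6948, 5769 and 21091 CPM in B2 replicates 1, 2 and 3 and 10752.5, 5178 and 20084 CPM under DMSO. CTSD made up most of it. Without CTSD the sums were 2442, 2109 and 5520.4 CPM under B2 and 2917, 1957 and 5974 CPM under DMSO. As a share of all counts the 10 genes held 2.09% and 1.99% in the libraries numbered 3 and 0.556% to 0.926% in the other 4. The log2 ratio of the mean sums, B2 over DMSO, was -0.09, with -0.92 when B2 replicate 3 was left out and 0.50 when DMSO replicate 3 was left out, and no test was made on the sum.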

How the data were processed

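The authors deposited 1 table of unnormalized estimated counts (expected counts) per Ensembl gene for 6 libraries. Per the submitters' processing notes, reads were aligned with HISAT2 2.0.4. How genes were counted, on which build and annotation and whether by strand is not given in the sources used here. All values were whole. The value 4 occurred 6465 times, against 3144 for 3 and 2022 for 5, so small counts are inexact, and a fit on counts divided by 4 was added to the alternatives. Positions, exon lengths and GC content come from GENCODE 29 (GRCh38), and 60401 of 60612 identifiers matched a symbol.

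The filter was filterByExpr of edgeR 4.0.16 (count 10, total 15; R 4.3.3), and TMM factors were 0.86 to 1.07. Tests were glmQLFTest with Benjamini-Hochberg adjustment over 17224 genes at 0.05: B2 against DMSO with treatment only, contrasts of numbers with treatment as a term, and an interaction. SE and intervals follow from the coefficient and its F statistic. The tests of B2 over DMSO and of number 3 were also run on simulated counts with known changes. For B2 over DMSO those counts held no difference between replicate numbers, unlike these libraries, so no conclusion is drawn from them. A count of 3, the floor, is 0.0386 to 0.0537 CPM.

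Across genes, same-numbered libraries deviated together from their group means (r 0.21, 0.40 and 0.50 for numbers 1, 2 and 3). No value for libraries of different number is given here, and the labels name no pairing. The main test of B2 over DMSO therefore left the number out, and the replicate block was an alternative. Alternatives were RLE factors, library totals, no filter, at least 50 counts in 3 libraries, DESeq2 1.42.0, limma-voom (limma 3.58.1), the block, number 3 left out, no treatment term, counts divided by 4 and each library left out. Removal of the GC trend (lowess span 0.3), the sum without CTSD, the alternatives for number 1 against number 2 and the interaction with a library left out were chosen after seeing the data.

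The 10 genes, the lists and the number contrasts were chosen with earlier results of these data known, so a permutation test planned for the summed level was not run. Other genes were named by rule: S100A9, per pathway list the 3 with the smallest p for number 3 and the 2 for B2, the 3 nearest to each of the 10 in shape and the 3 with the smallest p each way in number 3, of which the text prints a part. Marker genes come from their lists. A list of transcription factors is not reported here.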

Additional observations from a re-analysis of the deposited data

How the results depend on the processing

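With B2 over DMSO the count of called genes was 0 with the replicate block and under the other alternatives, except 3 with DESeq2, 0 to 1 without 1 library, and 48 without both libraries numbered 3 and with the replicate block. The count for number 3 was 946 with at least 50 counts in 3 libraries, 1029 with DESeq2, 1030 with counts divided by 4 and 1075 with the GC trend removed, and 288 to 958 without 1 library. Number 1 against number 2 (9 calls) gave 21 calls with RLE factors, 1 with library totals, 1035 with at least 50 counts, 638 with DESeq2, 1188 with counts divided by 4, 2 with the GC trend removed and 3 to 3965 without 1 library. The interaction gave 0 calls with RLE factors and limma-voom and 12 to 1193 without 1 library, and without a library numbered 3 it could not be fitted, as 1 treatment then had no such library.

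For B2 over DMSO, CTSL changed sign at -0.0075 with the GC trend removed, at -0.0067 with the GC trend removed and the replicate block, at -0.052 without number 3 and at -0.057 without number 3 and with the block. Without 1 library the log2 fold changes ran from -0.96 to 0.60 for CTSB, -0.13 to 0.45 for CTSC, -1.04 to 0.52 for CTSD, -1.13 to 0.71 for CTSH, -0.26 to 0.78 for CTSK, -0.087 to 0.13 for CTSL, -0.036 to 0.88 for CTSS, -0.53 to 0.35 for CTSZ, -0.39 to 0.061 for CST3 and 0.60 to 0.92 for LGMN. For number 3, CTSK ran from -0.49 to 0.014, and the other 9 genes kept their sign under the 15 alternatives. CTSB, CTSD and CTSH were called under 9 of 9 alternatives that keep all libraries, and CTSZ under 8 of 9. The replicate block changed no call of the 10 genes. The cause of these shifts was not tested. LGMN and CTSK had as few as 29 and 36 counts in a library.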
